A study of Mus musculus with 1 sample.

Results

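The cells described here were CD8 T cells of the blood that held at least 1 unique molecular identifier (UMI, a tag that marks 1 captured RNA molecule) of Gzmk or of Cx3cr1. Members had at least 1331 UMIs in all, at least 1 UMI of the CD3 genes Cd3d, Cd3e or Cd3g, at least 1 UMI of Cd8a or Cd8b1, and none of Cd4. This rule found 108 cells among 680 CD8 T cells (15.9%, exact 95% binomial interval 13.2 to 18.9) and among 1600 called cells (6.75%, 5.57 to 8.09). Within the 108 cells, 40 held Gzmk only, 28 held Cx3cr1 only and 40 held both genes (Gzmk+ Cx3cr1+ cells). Members were thus selected on measured values of Gzmk, Cx3cr1, Cd4, CD3 and CD8 genes, and those values are given below only as a description of the choice.

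The cells came from 1 vehicle-treated mouse with autochthonous small cell lung cancer (SCLC), in which Rb1 and Trp53 were conditionally deleted by an adenovirus carrying Cre that was given into the trachea. The study used male and female mice of a C57BL/6 background, vehicle was phosphate-buffered saline (PBS) given repeatedly, and the promoter that drove Cre is not given in the sources used here. From 150 µl of blood drawn into heparin tubes, red blood cells were lysed with ACK buffer and T cells were enriched by negative selection with a Pan T cell kit, before 10x Genomics gene expression and T cell receptor (TCR) libraries were made. The study asked how this mouse compared with one under combined PD-1 and ERBB2 blockade, and that library was not analysed here.

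CD8 T cells leave the thymus as naive cells that recirculate through lymph nodes with the homing receptor CCR7. After they meet antigen they divide, and their progeny switch on cytolytic granule proteins, chemokines and receptors for inflamed tissue. Granzyme K, a serine protease encoded by Gzmk, is known from memory-type and chronically stimulated CD8 T cells, whereas the fractalkine receptor CX3CR1 is known from circulating effector cells of high cytolytic capacity.

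The 108 cells held 623007 UMIs, with a lowest total of 1725, a median of 5332.5 and a highest of 13995 UMIs per cell. Median depth was 5723 UMIs in Gzmk-only cells, 4846 in Gzmk+ Cx3cr1+ cells and 4381.5 in Cx3cr1-only cells. The 572 other CD8 T cells, which held neither gene, had a median of 6120 UMIs (1410 to 17444). Below, expression is given as a rate, the UMIs of a gene summed over a group's cells and divided by all UMIs of that group, times 10000. With 1 library from 1 mouse no difference has a replicate check and no test was run. Intervals are exact 95% intervals (Poisson for rates, conditional binomial for ratios of rates, Clopper-Pearson for shares) and cover counting error only. A gene was called higher or lower when the ratio of its rates was at least 2 or at most 0.5 and it had at least 50 UMIs in the compared cells together. Counts over all genes include the genes that the rule used, and counts of gene lists leave them out.

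Gzmk, which lies at chr13:113308142-113362442 on the minus strand (GRCm39, GENCODE), was found in 80 of the 680 CD8 T cells. Its 445 UMIs were spread over these 80 cells with a lowest value of 1, a median of 5 and a highest value of 24 per cell, and 17 cells held a single UMI. Cx3cr1, at chr9:119877749-119898945 on the minus strand, was sparser. Its 138 UMIs fell on 68 cells with 1 as the lowest, 1.5 as the median and 8 as the highest value, and 34 of them held a single UMI. Among CD8 T cells with Gzmk, 50% (38.6 to 61.4) held Cx3cr1, and among those with Cx3cr1, 58.8% (46.2 to 70.6) held Gzmk. By contrast, Gzmk was found in 6.54% of the CD8 T cells without Cx3cr1, and Cx3cr1 in 4.67% of those without Gzmk. Of 82 B cells, which should lack both genes, 0 held Gzmk (an upper limit of 4.40%) and 2 held Cx3cr1 (2.44%). At the edge of the rule, the rule genes summed to 1 UMI in 22 members, 4 members held 1 CD8 UMI and 3 held 1 CD3 UMI. Just outside it, 1 barcode of 757 UMIs passed the gene rules, and 2 further cells with CD3, CD8 and Gzmk or Cx3cr1 were left out for a Cd4 UMI.

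The markers that accompany the label were present. Ccl5, which encodes a chemokine of memory and effector T cells, was found in 103 of the 108 cells, Nkg7, a component of cytolytic granules, in 104, and Lgals1, the lectin galectin-1, in 93. Cd8b1 was found in 105 and Cd8a in 88 cells. Markers of other cell types were at 0 for some lineages and present for others. Neutrophil and basophil markers had no UMI, B cell markers had 5 UMIs (all Cd79b), and the natural killer (NK) cell genes Ncr1 and Fcgr3, the gamma delta T cell genes Trdc and Tcrg-C1 and the monocyte genes Fcgr1, Cd14 and Adgre1 were at 0. The summed NK list stood at 2.76 per 10000 against 0.718 in other CD8 T cells, of which Eomes, a gene that CD8 T cells also use, gave 149 of 172 UMIs, and 5 of its 7 genes had a UMI. In the monocyte list 6 of 9 genes had a UMI and 17 members held at least 2 of them, and it stood at 2.07 against 1.87 with Ctss as its most abundant gene (74 of 129 UMIs). All 6 platelet genes had a UMI, and that list stood at 1.22 against 0.661, led by Pf4 with 27 of 76 UMIs. The gamma delta T cell list stood at 0.401 against 0.162, with Tcrg-C2 giving 19 of its 25 UMIs in members, and 2 members held at least 2 of its genes. Platelet markers differed between the groups of members, at 2.42 in Gzmk-only, 0.273 in Gzmk+ Cx3cr1+ and 0.641 in Cx3cr1-only cells. The regulatory T cell list gave 27 UMIs and the tumour cell list 5. The part of these transcripts in the results below was not tested. A free RNA content of 5% would account for 0.673 Gzmk UMIs, 0.149 Cx3cr1 UMIs and 33.3 Ccl5 UMIs over all 108 cells.

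Ribosomal protein (RP) transcripts made up a median of 18.9% of the UMIs of the 108 cells and 31.0% in the other CD8 T cells. Barcodes with under 10% RP transcripts numbered 10 of 108 (9.26%, 4.53 to 16.4) and 162 of 572 (28.3%). Without these barcodes the medians were 19.6% and 35.3%. This difference moves with every comparison against the other CD8 T cells, and its part in the single genes was not tested.

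A productive TCR was assembled for 95 of the 108 cells (88.0%), against 424 of 572 other CD8 T cells (74.1%). Of these, 82 cells had a TRA and a TRB chain, 11 TRB alone and 2 TRA alone. The 95 cells fell into 67 clonotypes, and 43 cells (45.3%, 35.0 to 55.8) belonged to a clonotype of at least 2 cells. Among the other CD8 T cells this was the case for 14 of 424 cells (3.30%, 1.82 to 5.48). Intervals of these shares take each cell as a separate draw. The 43 members came from 15 clonotypes, whose cells are counted together, so the intervals are too narrow. The share was 46.2% (30.1 to 62.8) in Gzmk-only, 51.5% (33.5 to 69.2) in Gzmk+ Cx3cr1+ and 34.8% (16.4 to 57.3) in Cx3cr1-only cells, with intervals that overlapped. Of the 76 cells that made up all 27 expanded clonotypes of the library, 43 (56.6%, 44.7 to 67.9) were members, 14 were other CD8 T cells, 15 were cells that were not CD8 T cells by the rule, and 4 lay under the UMI limit.

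The CDR3, the loop of a TCR chain formed where the V and J segments are joined, identifies each clone. The TRB CDR3 sequences of the 6 largest clonotypes that held members, and of one clonotype made of Cx3cr1-only cells and one of Gzmk-only cells, are shown from 5′ to 3′ because the clones divide the members. Capitals mark bases that matched neither the germline V segment read from its start nor the J segment read from its end, and hold D segment and added bases.
clonotype2, TRBV1 and TRBJ1-4: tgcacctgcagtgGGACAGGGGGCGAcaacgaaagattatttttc
clonotype1, TRBV12-2 and TRBJ1-6: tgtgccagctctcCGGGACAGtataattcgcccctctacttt
clonotype3, TRBV15 and TRBJ2-5: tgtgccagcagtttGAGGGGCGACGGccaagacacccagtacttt
clonotype5, TRBV12-2 and TRBJ2-7: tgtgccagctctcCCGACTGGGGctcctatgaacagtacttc
clonotype4, TRBV16 and TRBJ2-5: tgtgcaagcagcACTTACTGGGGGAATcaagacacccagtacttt
clonotype7, TRBV16 and TRBJ1-3: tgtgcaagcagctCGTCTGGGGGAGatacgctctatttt
clonotype18, TRBV2 and TRBJ2-3: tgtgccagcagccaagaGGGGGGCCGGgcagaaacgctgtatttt
clonotype23, TRBV12-1 and TRBJ1-1: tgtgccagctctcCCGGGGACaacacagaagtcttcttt

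The first 6 of these chains used 4 V segments of the TRB locus on chromosome 6 (GRCm39): Trbv1 at chr6:40868163-40868819, Trbv12-2 at chr6:41095785-41096298, Trbv15 at chr6:41118122-41118592 and Trbv16 at chr6:41128674-41129164, all on the plus strand. A second TRB chain, of TRBJ1-5 and a V segment named TRBV12-2+TRBV13-2 (in 3 cells) or TRBV13-2 (in 1 cell), was also assembled in clonotype3 and is not shown. In the first 6 chains, unmatched bases numbered from 8 of 42 in clonotype1 to 15 of 45 in clonotype4. The sequences differed between the clonotypes also where they shared a V segment, as clonotype1 and clonotype5 do. Clonotype2 carried 2 TRA chains, one of TRAV8D-2 and TRAJ23 in all 8 cells with 0 unmatched bases, and one of TRAV13N-1 and TRAJ9 in 7 cells with 1 unmatched base. The first of them, and the TRA chain of clonotype1, were
TRA of clonotype2: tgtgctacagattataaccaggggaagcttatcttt
TRA of clonotype1, TRAV7-4 and TRAJ34: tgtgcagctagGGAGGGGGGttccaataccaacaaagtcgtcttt

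Clonotype2 consisted of 8 members, 6 Gzmk-only and 2 Gzmk+ Cx3cr1+ cells. Its cells held between 4 and 20 Gzmk UMIs and between 15 and 300 Ccl5 UMIs each, and Zeb2 and S1pr5 were at 0 in all 8. Clonotype1 was of another makeup, with 4 Cx3cr1-only cells, 1 Gzmk-only cell and 4 other CD8 T cells that held neither gene. All 9 of its cells held Ccl5 (11 to 128 UMIs), and Eomes, Tigit and Tox were at 0 in all 9. Clonotype3 held 3 Gzmk+ Cx3cr1+ cells, 1 Gzmk-only cell and 1 other CD8 T cell, and clonotype5 held 3 Gzmk+ Cx3cr1+ cells and 1 Gzmk-only cell. Clonotype4 held 2 Gzmk-only cells, 1 Cx3cr1-only cell and 1 other CD8 T cell. Both cells of clonotype18 were Cx3cr1-only and held Zeb2 and S1pr5, and both cells of clonotype23 were Gzmk-only. Of 13 clonotypes with at least 2 members, which together had 41 members, 7 spanned more than 1 of the groups. In 4 of these Gzmk-only cells were found with Gzmk+ Cx3cr1+ cells and in 2 with Cx3cr1-only cells, and 1 joined Cx3cr1-only with Gzmk+ Cx3cr1+ cells. The other 6 stayed within a group, 2 in Gzmk-only, 3 in Gzmk+ Cx3cr1+ and 1 in Cx3cr1-only cells. Clonotype25, of 2 Gzmk+ Cx3cr1+ cells, and clonotype13, of 1 Gzmk-only cell and 1 barcode under the UMI limit, carried the same TRB and TRA CDR3 under different V segment names, and were counted apart as the authors' table has them. Their shared TRB CDR3 was
clonotype13 and clonotype25: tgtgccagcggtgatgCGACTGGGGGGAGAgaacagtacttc
A cell can miss a gene at this depth, so the group of a single cell within a clone is a detection, not an absence.

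**Figure D1:**
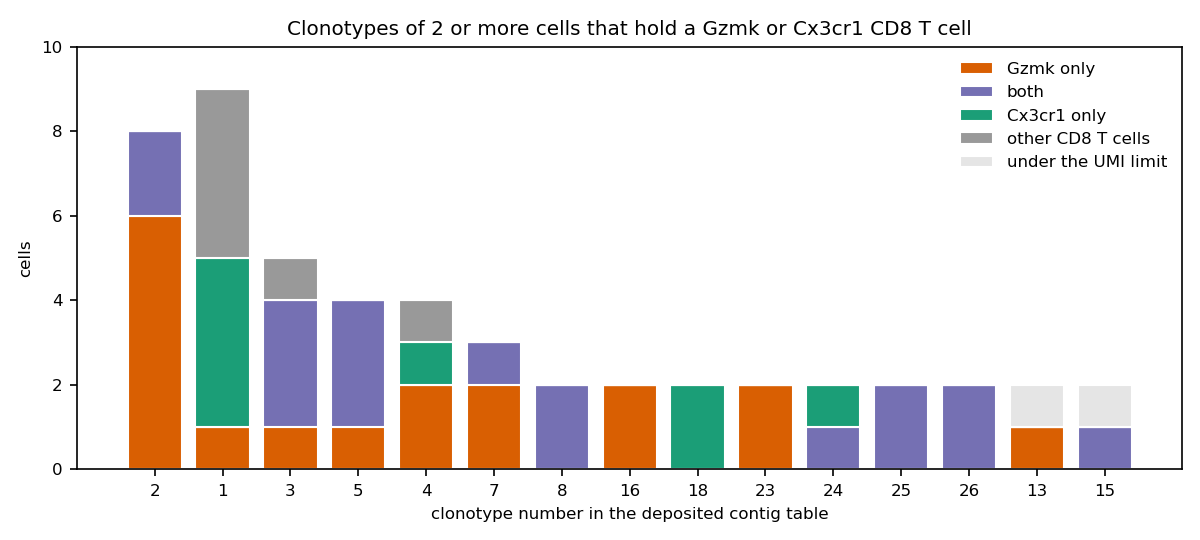
Number of cells (vertical axis) in each clonotype of at least 2 cells that held a member, by its number in the deposited contig table (horizontal axis), coloured by group. Clonotype2 held 6 Gzmk-only and 2 Gzmk+ Cx3cr1+ cells, and clonotype1 held 4 Cx3cr1-only cells, 1 Gzmk-only cell and 4 other CD8 T cells.

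Within the members, the 43 cells of expanded clonotypes were compared with the 52 cells whose clonotype was seen once. Ccl5 stood at 277 per 10000 (270 to 284) in expanded and at 190 (185 to 195) in unexpanded cells, and Nkg7 at 34.2 and 26.3. Ccr7, the lymph node homing receptor, was the reverse, with 0.355 (0.153 to 0.699) in expanded and 1.92 (1.49 to 2.43) in unexpanded cells. Without 4 unexpanded cells that held no Ccl5, the latter was 1.26 (0.898 to 1.71). The difference in Ccr7 was past 2-fold with and without these cells, and those in Ccl5 and Nkg7 were within it. Gzma stood at 8.91 against 4.54, Eomes at 3.01 against 1.89 and Zeb2 at 1.91 against 2.45. Gzmk stood at 9.04 against 5.98, while the Cx3cr1 rate was 2.00 in each. The 14 other CD8 T cells in expanded clonotypes had 64.3 Ccl5 UMIs per 10000 when pooled, below both, but they were not uniform. Ccl5 was found in 8 of the 14. Those that shared a clonotype with members, in clonotype1, clonotype3 and clonotype4, held between 42 and 124 Ccl5 UMIs each.

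Counted once per clonotype, TRBJ2-7 was used by 17 of 66 member clonotypes (25.8%, 15.8 to 38.0) and by 63 of 407 clonotypes of other CD8 T cells (15.5%, 12.1 to 19.4), with overlapping intervals. TRAJ9 was used by 7 of 59 (11.9%, 4.91 to 22.9) against 9 of 340 (2.65%, 1.22 to 4.97), intervals that barely overlapped. TRAJ9 was singled out among 156 segments after its values were seen, and clonotype13 and clonotype25, which share their CDR3 sequences, are both among the 7. Counted once they left 6 of 58 (10.3%, 3.89 to 21.2). TRBV16 was found in 8 of 66 (12.1%) against 37 of 407 (9.09%), and TRBV13-2, counted alone or in the combined name TRBV12-2+TRBV13-2, in 9 of 66 (13.6%) against 42 of 407 (10.3%).

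The members were then compared with the 572 other CD8 T cells. Of 7902 genes with enough UMIs, 465 were higher (5.88%) and 541 lower (6.85%), and the median log2 ratio over all of them was 0.09. As the rule chose the cells by Gzmk and Cx3cr1, these ratios describe what else the chosen cells held. The split between higher and lower genes depended on the processing. When RP and mitochondrial transcripts were left out of the denominator, which was chosen after the data had been seen, the median log2 ratio became -0.11 and the counts 299 higher and 739 lower, so that higher genes were 28.8% and not 46.2% of the calls. Without barcodes under 10% RP the median was 0.23, with 528 higher and 333 lower (61.3% higher). Ratios below are to be read against these shifts. Among the medians of the 20 lists, that of BCL2 family survival genes changed its sign under the other denominator (0.16 to -0.03). Without barcodes under 10% RP, chemokines and cytokines (0.23 to -0.16) and cytokine receptors (-0.05 to 0.09) changed theirs.

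Granzymes and cytolytic granule genes were higher in the members. Of 14 tested, 9 were higher and 0 lower, with a median log2 ratio of 1.45. Gzmb (granzyme B, chr14:56496295-56499717, minus strand) had a rate of 1.37 (0.951 to 1.92) in Gzmk-only, 3.14 (2.45 to 3.98) in Gzmk+ Cx3cr1+ and 2.44 (1.72 to 3.34) in Cx3cr1-only cells, and of 0.0360 in other CD8 T cells. It was found in 44 members, and its ratio was 62.8 (36.2 to 118). Gzma (granzyme A, chr13:113230355-113237524, minus strand) had 1.5, 9.47 and 7.82 per 10000 in the same order and 0.152 in other CD8 T cells, a ratio of 38.8 (29.4 to 52.0). Gzma was restricted to 7, 14 and 8 cells of the 3 groups, and its highest cell held 121.2 per 10000. Prf1, which encodes the pore-forming perforin, was found in 59 members and 4.26-fold higher (3.35 to 5.40). Fasl, the death receptor ligand, was found in 48 members and 7.16-fold higher (5.0 to 10.3). Nkg7 was 4.33-fold higher (4.08 to 4.6), and Gzmm, Ctsd, Serpinb9 and Serpinb6b, the last 2 inhibitors of serine proteases, were higher by 2.60-, 2.88-, 3.17- and 2.53-fold. Srgn, the proteoglycan core of the granules, had a ratio of 1.77 and Ctsw of 1.25, within the limits.

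Among chemokines and cytokines, Ccl5 (chr11:83416602-83425942, minus strand) stood apart. Per cell it ranged from 0 to 549.97 UMIs per 10000 among the members, with a median of 237.87. Its rate was 223 (220 to 227) in members and 17.1 (16.7 to 17.5) in other CD8 T cells, a ratio of 13.1 (12.7 to 13.5). B cells, which should lack Ccl5, had 1.87. After each cell was thinned to 2500 UMIs, Ccl5 was found in 95.1% of 102 members, 25.6% of other CD8 T cells and 9.84% of B cells, against 95.4%, 30.4% and 12.2% before thinning. Nkg7 and Lgals1 were found in 97.1% and 83.3% of thinned members and in 63.5% and 23.2% of other CD8 T cells. Ccl4 and Ccl3, chemokines of activated T cells, had 43 UMIs against 6 and 20 UMIs against 2, under the minimum. Ifng, the gene of interferon gamma, had 23 UMIs in 18 members (9 UMIs in Gzmk-only, 13 in Gzmk+ Cx3cr1+ and 1 in Cx3cr1-only cells) and 1 UMI in all other CD8 T cells. Xcl1, a chemokine for cross-presenting dendritic cells, was lower, with 1 UMI in members against 54 (ratio 0.116, 0.00287 to 0.671). Of the 5 chemokine and cytokine genes tested, Ccl5 was thus higher and Xcl1 lower.

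Receptors for homing were divided. Of 14 chemokine and homing receptors tested, 4 were higher and 3 lower (median log2 ratio 0.41). Ccr2, a receptor for inflammatory chemokines, was 9.27-fold (6.0 to 14.5) higher, and Cxcr3, the receptor for interferon-induced chemokines, 3.5-fold (2.80 to 4.36). S1pr5, the sphingosine-1-phosphate receptor of circulating effector cells (chr9:21154208-21159746, minus strand), was 11.4-fold higher (7.51 to 17.7). Ccr7 had 1.24 UMIs per 10000 in members and 6.27 in other CD8 T cells (ratio 0.197, 0.155 to 0.247). The gut homing receptor Ccr9 was lower as well (ratio 0.305). S1pr1, which guides naive and memory cells out of lymph nodes, had a ratio of 0.806. Integrins showed a like division, with 4 of 9 higher and 2 lower (median 0.80). Itga4 was found in 105 members at 13.2 (12.4 to 14.2) against 3.51 per 10000, a ratio of 3.77 (3.46 to 4.12). Itgb1 and Itgb2, the beta chains that pair with Itga4 and Itgal, were 4.45-fold (3.85 to 5.13) and 3.13-fold (2.75 to 3.55) higher. Itgae, the alpha chain of resident cells, was lower with a ratio of 0.313 (0.160 to 0.557), and Itgb3 was the other lower integrin, at 0.489 (0.128 to 1.33) on 4 UMIs in members and so at the limit.

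NK receptor genes expressed by effector CD8 T cells were higher in 5 of 9 tested, with 1 lower and a median log2 ratio of 1.79. Klrg1, an inhibitory receptor of short-lived effector cells, had 51 UMIs in 29 members and 2 UMIs in all other CD8 T cells (ratio 159, 41.8 to 1349). Klrk1, the activating receptor NKG2D, was 7.51-fold higher (5.93 to 9.54), and Klrc1, the inhibitory NKG2A, 6.12-fold (4.89 to 7.67). Klra7, of the Ly49 family, had no UMI in the members and 0.196 per 10000 in other CD8 T cells.

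Transcription factors showed an opposition of 2 lists. Of 10 effector and memory factors tested, 6 were higher and 0 lower (median log2 ratio 2.12), whereas of 12 naive and quiescence factors 0 were higher and 6 lower (median -1.03). Zeb2, a repressor that acts in terminal effector cells (chr2:44873644-45007464, minus strand), had 2.58 (2.20 to 3.02) against 0.0592 per 10000, a ratio of 43.7 (28.1 to 70.8). B cells also held Zeb2, at 1.60. Tbx21 and Eomes, the T-box factors of effector and memory cells, were 4.89-fold (3.6 to 6.62) and 4.82-fold (3.86 to 5.99) higher. Bhlhe40 was 23.2-fold (12.7 to 45.3), Rora 7.61-fold (5.57 to 10.4) and Id2 3.94-fold (3.39 to 4.57) higher. Among the naive factors, Satb1 had a ratio of 0.190 (0.147 to 0.241), Bach2 of 0.345 and Lef1 of 0.377 (0.326 to 0.433). Foxp1 (0.442) and Zeb1 were lower as well, but not without barcodes under 10% RP. Tcf7, the factor of stem-like and naive T cells, had a ratio of 0.506 and so lay just within the limits. Naive surface and cytoplasmic genes had 7 of 11 lower and 0 higher (median -1.93), with Dapl1 at a ratio of 0.0871 (0.0474 to 0.147) and Igfbp4 at 0.111. Il7r, the receptor chain for the survival cytokine interleukin-7, had 7.24 against 10.7 per 10000, a ratio of 0.677.

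**Figure D2:**
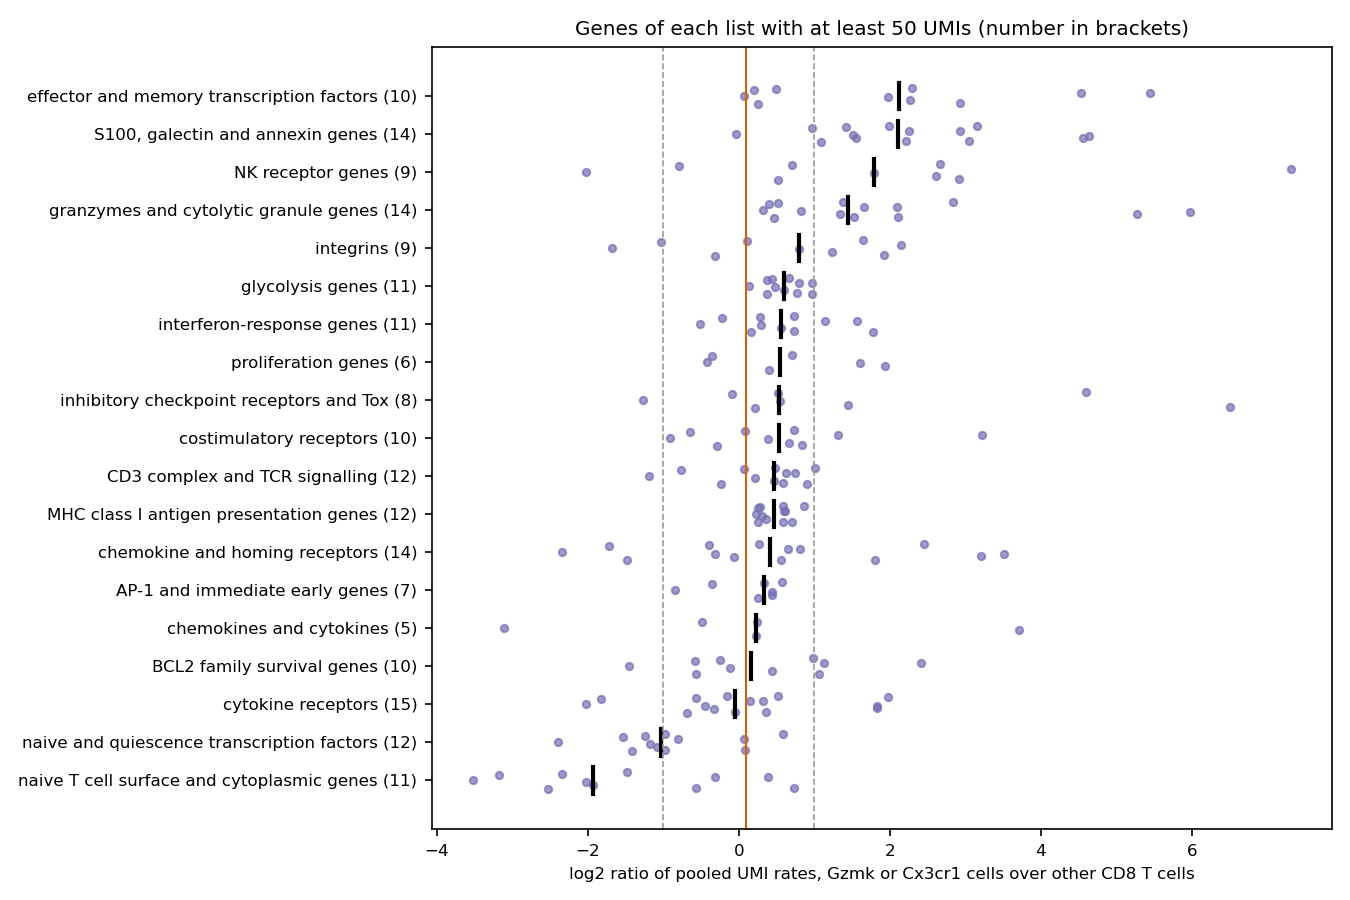
Log2 ratio of pooled UMI rates of members over other CD8 T cells (horizontal axis) for each gene with at least 50 UMIs, by gene list (vertical axis). Black bars are list medians, the orange line is the median of all genes (0.09) and dashed lines mark 2-fold. Effector and memory transcription factors had a median of 2.12, and naive surface and cytoplasmic genes of -1.93.

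Of 8 inhibitory checkpoint genes tested (the list includes Tox), 3 were higher and 1, Btla, lower (median 0.53). Pdcd1, which encodes PD-1, had 58 UMIs in 27 members (12 Gzmk-only, 8 Gzmk+ Cx3cr1+ and 7 Cx3cr1-only cells) and 4 UMIs in other CD8 T cells, a ratio of 90.4 (33.5 to 343). Tigit, an inhibitory receptor for nectin-type ligands (chr16:43469100-43484509, minus strand), was 24.2-fold (15.5 to 39.2) and Tox, a nuclear factor of chronically stimulated cells, 2.73-fold (2.37 to 3.15) higher. Lag3 had 30 UMIs against 3 and Havcr2 5 against 0, both under the minimum. Of 10 costimulatory receptors (median 0.53), Slamf7 was 9.36-fold higher (6.5 to 13.6) and Tnfrsf1b was the other higher gene. Cytokine receptors had no common direction, with 3 of 15 higher (Il10ra, Il15ra and Il18rap), 2 lower and a median of -0.05.

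S100, galectin and annexin genes, which encode calcium- and sugar-binding proteins of activated and migrating cells, were higher in 12 of 14 (median 2.10). S100a4 was 23.4-fold (18.1 to 30.7), S100a6 8.87-fold (8.10 to 9.72), Lgals1 7.60-fold (6.89 to 8.39) and Anxa2 8.26-fold higher. Lgals3, encoding galectin-3, was 24.8-fold higher (17.1 to 36.8), of which a single cell gave 26.6% of the member UMIs. After thinning, S100a6 was found in 80.4% of members, 15.1% of other CD8 T cells and 6.56% of B cells (87.0% and 21.9% of the CD8 groups before thinning). The remaining lists moved less. Of 12 CD3 and TCR signalling genes (median 0.47) the kinase Fyn was higher and the kinase Txk lower, the first not under the other denominator and the second not without barcodes under 10% RP. All 12 MHC class I genes, all 11 glycolysis genes and all 7 AP-1 genes tested were within 2-fold, with medians of 0.47, 0.59 and 0.34 beside 0.09 over all genes. Of 6 proliferation genes (median 0.55), Stmn1 and Hmgb2 were 3.04- and 3.82-fold higher, and Mki67 had 6 UMIs in the members. Of 11 interferon-response genes (median 0.56), Irf7, Ly6a and Ifi27l2a were higher, the last not without barcodes under 10% RP. Of 10 BCL2 family genes (median 0.16), Bcl2a1b (5.31-fold), Bcl2l1 and Bad were higher, but Bcl2l1 and Bad not under the other denominator. Bcl2 was lower (0.364), a call that was lost without barcodes under 10% RP.

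Among genes with at least 50 UMIs that the rule did not use, the highest ratios were those of Klrg1, Pdcd1, Gzmb, Zeb2 and Gzma. Outside the lists, Ttc39c was 25.5-fold higher (13.4 to 52.6) and found in 32 members. At the other end were Bmyc, a relative of Myc (ratio 0.0495, 0.00124 to 0.281), the sialyltransferase St8sia1 (0.0786, 0.0254 to 0.185) and Il6st, the shared signalling chain of the interleukin-6 receptor family (0.0852, 0.0311 to 0.187). Il6ra, the ligand-binding chain of the same receptor, was lower as well (0.245).

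**Figure D3:**
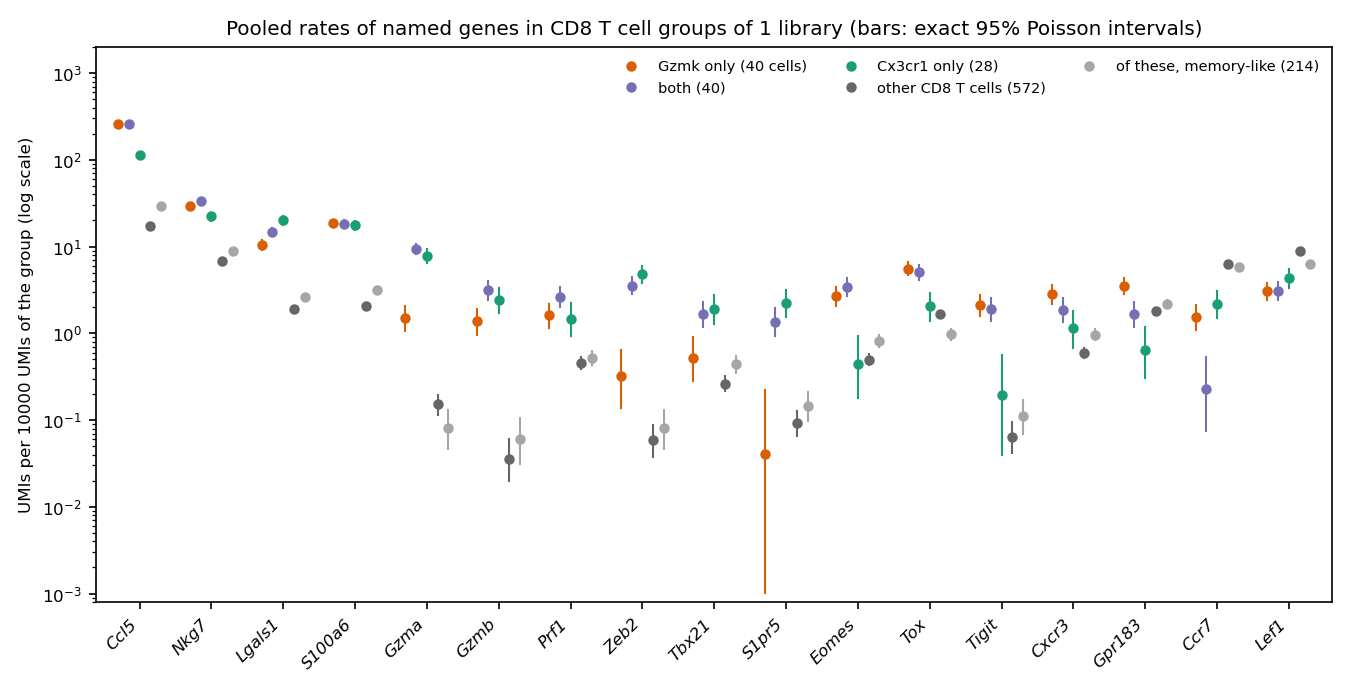
UMIs per 10000 UMIs of the group (vertical axis, log scale) for 17 genes (horizontal axis) in Gzmk-only, Gzmk+ Cx3cr1+ and Cx3cr1-only cells, in other CD8 T cells and in the memory-like cells among these. Points are pooled rates and bars exact 95% Poisson intervals. Zeb2 stood at 0.323 in Gzmk-only and 4.81 in Cx3cr1-only cells, and Eomes at 2.67 and 0.449.

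The other CD8 T cells are a mixture, so the members were set beside 214 of them that held Ly6c2 and Il2rb. These are called memory-like here, and whether they had met antigen was not tested. Of the clonotyped memory-like cells, 3.65% (1.48 to 7.37) belonged to a clonotype of at least 2 cells, against 3.30% of all other CD8 T cells. The median depth of the memory-like cells was 9524 UMIs, above that of the members, and the choice needed 2 genes to be detected. Of 6203 genes, 402 were higher (6.48%) and 206 lower (3.32%) in members, with a median log2 ratio of 0.21, and with RP and mitochondrial transcripts out of the denominator 208 were higher and 372 lower (35.9% and not 66.1% higher) around a median of -0.05. Cytolytic genes (8 of 14 higher, 0 lower), effector and memory factors (6 of 10 higher, 0 lower) and S100, galectin and annexin genes (11 of 14 higher, 0 lower) had medians of 1.24, 1.55 and 1.83. Gzma was 72.7-fold higher, Pdcd1 61.2-fold (19.9 to 306), Gzmb 37.2-fold and Zeb2 31.9-fold. Klrg1 had no UMI in memory-like cells and was at least 53.9-fold higher, with the floor of 3 UMIs over that group. Ccl5 was 7.55-fold higher than in memory-like cells, which had 29.6 per 10000, and Itga4 6.74-fold (5.96 to 7.62). Naive surface and cytoplasmic genes were lower in 7 of 11 (median -1.77), while of 10 naive and quiescence factors only Satb1 was called. Xcl1 was lower with a ratio of 0.0609. The other denominator changed the sign of the medians of BCL2 family genes (0.21 to -0.06) and of chemokines and cytokines (0.03 to -0.23).

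Gzmk-only cells were then compared with Cx3cr1-only cells. Of 1195 genes with at least 50 UMIs, 38 were higher (3.18%) and 23 lower (1.92%) in Gzmk-only cells, around a median log2 ratio of 0.03, and the change of denominator left these counts as they were. Gzmk is among the 38 and Cx3cr1 among the 23, as the choice of cells fixed. Median RP content was 21.3% and 17.5%. Gzmk-only cells had more Eomes, Tigit, Tox, Cxcr3 and Gpr183, and Cx3cr1-only cells had more Zeb2, Gzma and Lgals3. The part of the platelet transcripts, which were also higher in Gzmk-only cells, in these differences was not tested. Gzmk+ Cx3cr1+ cells had Eomes, Tigit and Tox near the rates of the former and Zeb2 and Gzma near those of the latter.

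Zeb2 had 0.323 UMIs per 10000 (0.140 to 0.637) in Gzmk-only, 3.55 (2.81 to 4.43) in Gzmk+ Cx3cr1+ and 4.81 (3.78 to 6.03) in Cx3cr1-only cells. The Gzmk-only to Cx3cr1-only ratio was 0.0672 (0.0280 to 0.139), the lowest of the genes tested apart from Cx3cr1, which the rule used. Zeb2 was found in 7, 23 and 16 cells of the 3 groups, and after thinning in 7.69% (1.62 to 20.9), 42.1% (26.3 to 59.2) and 52.0% (31.3 to 72.2), beside 16.4% of B cells. S1pr5 followed the same order with 1 Gzmk-only, 11 Gzmk+ Cx3cr1+ and 14 Cx3cr1-only cells. Its rates were 0.0404, 1.37 and 2.24, and its Gzmk-only to Cx3cr1-only ratio of 0.018 (0.000443 to 0.107) rested on under 50 UMIs. Thinned to 2500 UMIs, 0% (0 to 9.03) of Gzmk-only and 40% (21.1 to 61.3) of Cx3cr1-only cells held S1pr5. Tbx21 had 0.525, 1.69 and 1.92 per 10000, also under the minimum for this pair.

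Eomes (chr9:118307280-118315200, plus strand) went the other way. Its rate was 2.67 (2.06 to 3.39) in Gzmk-only, 3.46 (2.73 to 4.33) in Gzmk+ Cx3cr1+ and 0.449 (0.180 to 0.925) in Cx3cr1-only cells, a Gzmk-only to Cx3cr1-only ratio of 5.94 (2.73 to 15.4). It was found in 24, 29 and 5 cells, and after thinning in 41.0%, 50% and 12%, beside 0% of B cells. Tigit had 2.10 (1.57 to 2.76), 1.91 (1.38 to 2.59) and 0.192 (0.0397 to 0.562) per 10000 in 22, 19 and 2 cells. Its ratio of 10.9 (3.54 to 54.7), which rests on 3 UMIs in Cx3cr1-only cells, was the highest of the comparison apart from Gzmk, which the rule used. After thinning, Tigit was found in 38.5% (23.4 to 55.4), 34.2% and 8.0% (0.984 to 26.0) of the groups. Tox had 5.58 (4.68 to 6.59), 5.06 and 2.05 (1.40 to 2.90) in 34, 31 and 11 cells, a ratio of 2.72 (1.84 to 4.13), and 1.25 in Cx3cr1-only cells without the cell that held most of it. Pdcd1 was different, with 1.09 in Gzmk-only and 1.09 in Cx3cr1-only cells, and Lag3 stood at 0.849, 0.364 and 0.0641 on few UMIs.

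Cytolytic genes hardly divided the groups, with 1 of 9 called and a median log2 ratio of 0.16. Gzma was lower in Gzmk-only cells, with 1.5 (1.05 to 2.06) against 7.82 (6.5 to 9.34) per 10000, a ratio of 0.191 (0.129 to 0.278). A single cell held 41.8% of the Gzma UMIs of the Cx3cr1-only group and another 43.2% of those of the Gzmk-only group, and without these cells the rates were 4.68 and 0.869. Without the largest clonotype of each group the log2 ratio shrank to 0.54 in size and the call was lost. Gzmb (ratio 0.564) and Prf1 (1.62 against 1.47 per 10000) stayed within the limits. Ccl5 was 2.25-fold higher (2.13 to 2.37) in Gzmk-only cells, with rates of 258 (252 to 264) and 115 (110 to 120), and stood at 262 (255 to 269) in Gzmk+ Cx3cr1+ cells. Per cell, Ccl5 ranged from 5.22 to 549.97 per 10000 around a median of 267.1 in Gzmk-only and from 0 to 337.22 around 164.48 in Cx3cr1-only cells, so the groups overlapped. The Ccl5 call was lost when the means over cells were used, when Cx3cr1-only cells without Ccl5 were left out, and when 2 UMIs of the gene were needed.

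Among receptors, Gpr183, which guides T cells by oxysterols, had 3.52 (2.82 to 4.34), 1.69 and 0.641 (0.307 to 1.18) per 10000 in 26, 18 and 6 cells (Gzmk-only to Cx3cr1-only ratio 5.48, 2.84 to 11.8). Cxcr3 had 2.83 (2.20 to 3.57), 1.87 and 1.15 (0.684 to 1.82), a ratio of 2.45 (1.44 to 4.37) that was lost when cells without Ccl5 were left out. The costimulatory receptor Cd28 (2.31, 1.41 to 3.94) and Slamf6 (2.15, 1.11 to 4.50) were higher in Gzmk-only cells, and Cd226 (0.374, 0.200 to 0.680) lower. The calls of Cd28 and Slamf6 lay close to the 2-fold limit, a log2 ratio of 1. Without the largest clonotype of each group the log2 ratio of Cd28 was 0.91, and without barcodes under 10% RP that of Slamf6 was 0.94. Klrc1 and its partner chain Klrd1 were lower in Gzmk-only cells, with ratios of 0.469 (0.287 to 0.758) and 0.478 (0.344 to 0.660). Both NK receptor calls were lost in other settings, Klrc1 without barcodes under 10% RP and Klrd1 without the largest clonotype of each group. Il10ra was higher (3.22, 1.56 to 7.48) and Il18rap, a chain of the interleukin-18 receptor, lower (0.368, 0.204 to 0.647).

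Of the galectins, Lgals3 was lower in Gzmk-only cells (0.218, 0.134 to 0.345), with 1.05, 1.91 and 4.81 per 10000 in Gzmk-only, Gzmk+ Cx3cr1+ and Cx3cr1-only cells. Lgals1 had 10.4 (9.19 to 11.8), 14.8 and 20.1 (18.0 to 22.5), a ratio of 0.518 (0.437 to 0.612) just within the limits. S100a6 stood at 18.6, 18.4 and 17.6, but 1 cell held 42.5% of its UMIs in Cx3cr1-only cells, and without that cell the rate was 11.1 (9.44 to 12.98). The medians of S100a6 per cell were 12.4 in Gzmk-only and 6.67 in Cx3cr1-only cells. Without the Cx3cr1-only cells that held no Ccl5 their S100a6 rate was 23.3 (20.6 to 26.3), so its order relative to Gzmk-only cells changed with the cells left out. Without the same cells the Lgals1 rate of Cx3cr1-only cells was 25.8 against 10.4 in Gzmk-only cells, past the 2-fold limit. The Cx3cr1-only rate of Lgals3 was 2.60 without the cell that held most of it, and was still above that of Gzmk-only cells. Genes outside the lists that were higher in Gzmk-only cells included Rasgef1b (7.25, 2.65 to 27.7), Ctla2a, encoding a cysteine protease inhibitor (4.41, 2.84 to 7.16) and Sh2d1a, the adaptor of SLAM receptors (3.87, 2.19 to 7.38). Of the interferon-response list, Ifi27l2a was higher (3.21, 2.00 to 5.40). MHC class I, glycolysis, AP-1, integrin and naive factor lists had 0 genes called in either direction in this pair. Without barcodes under 10% RP, 3 list medians near 0 changed their sign, those of S100, galectin and annexin genes (0.08 to -0.01), CD3 and TCR signalling genes (-0.03 to 0.15) and naive surface and cytoplasmic genes (-0.01 to 0.15).

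**Figure D4:**
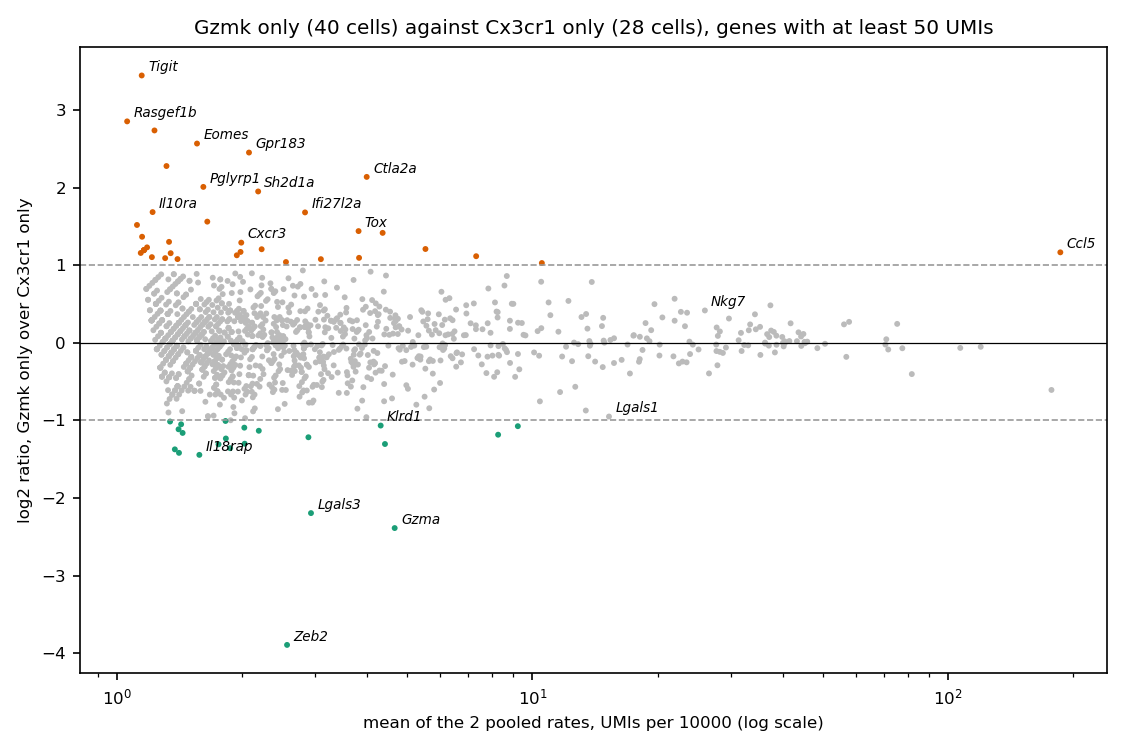
Log2 ratio of Gzmk-only over Cx3cr1-only cells (vertical axis) against the mean of the 2 pooled rates in UMIs per 10000 (horizontal axis, log scale). Genes with at least 50 UMIs are shown, without Gzmk and Cx3cr1. Orange points were higher and green points lower past the dashed 2-fold lines, with Tigit at the top and Zeb2 at the bottom.

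Set beside Gzmk-only cells, Gzmk+ Cx3cr1+ cells had 41 of 1512 genes higher (2.71%) and 10 lower (0.661%). Zeb2 was 11-fold (5.31 to 26.4), Gzma 6.34-fold (4.45 to 9.25), Tbx21 3.21-fold (1.67 to 6.58) and Klrc1 2.96-fold (1.95 to 4.6) higher, and Gpr183 (0.479) lower. Set beside Cx3cr1-only cells, 53 of 1190 genes were higher (4.45%) and 10 lower (0.840%). Eomes was 7.71-fold (3.57 to 19.8), Pglyrp1 4.33-fold and Sh2d1a 3.75-fold higher, and Nfkbia (0.264) and Emb (0.306) were lower. A single cell held 41.9% of the Nfkbia UMIs of Cx3cr1-only cells, whose rate was 2.76 with and 1.70 without it, against 0.729 in Gzmk+ Cx3cr1+ cells. These pairs share groups of cells, so their values are not independent. RP transcripts made up 17.1% of the pooled UMIs of Gzmk+ Cx3cr1+ cells, against 23.3% in Gzmk-only and 23.2% in Cx3cr1-only cells. The part of this difference in the counts of higher and lower genes was not tested. Ccr7 was lowest in Gzmk+ Cx3cr1+ cells, at 0.228 (0.0739 to 0.531) in 2 cells, against 1.54 in 13 Gzmk-only and 2.18 in 7 Cx3cr1-only cells. The Cx3cr1-only rate rested on cells without Ccl5, and was 0.429 (0.139 to 1.0) when these were left out, so that its interval overlapped that of Gzmk+ Cx3cr1+ cells. Without the cell that held most Ccr7 the rate was 0.0483 in Gzmk+ Cx3cr1+ and 1.01 in Gzmk-only cells. After thinning, Ccr7 was found in 2.63% of Gzmk+ Cx3cr1+, 17.9% of Gzmk-only and 28% of Cx3cr1-only cells, beside 68.5% of other CD8 T cells.

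Within single cells, S1pr5 was nearly always found with Zeb2. Of 108 cells, 25 held both, 21 held Zeb2 without S1pr5 and 1 held S1pr5 without Zeb2. Tigit and Tox were found together in 41 cells, with 2 holding Tigit alone and 35 Tox alone. Tox was found in 76 of the 108 cells, however, and Zeb2 in 46, so this overlap says less. S1pr5 and Tigit were seldom found in the same cell, with 2 cells holding both, 24 S1pr5 alone and 41 Tigit alone. Zeb2 and Eomes, whose rates went opposite ways between the single-gene groups, were found together in 24 cells, of which 17 were Gzmk+ Cx3cr1+, 4 Gzmk-only and 3 Cx3cr1-only. Gzma and Gzmb were found together in 16 cells, with 13 holding Gzma alone and 28 Gzmb alone. These counts rise with the depth of a cell, since a deeper cell shows more of its genes.

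**Figure D5:**
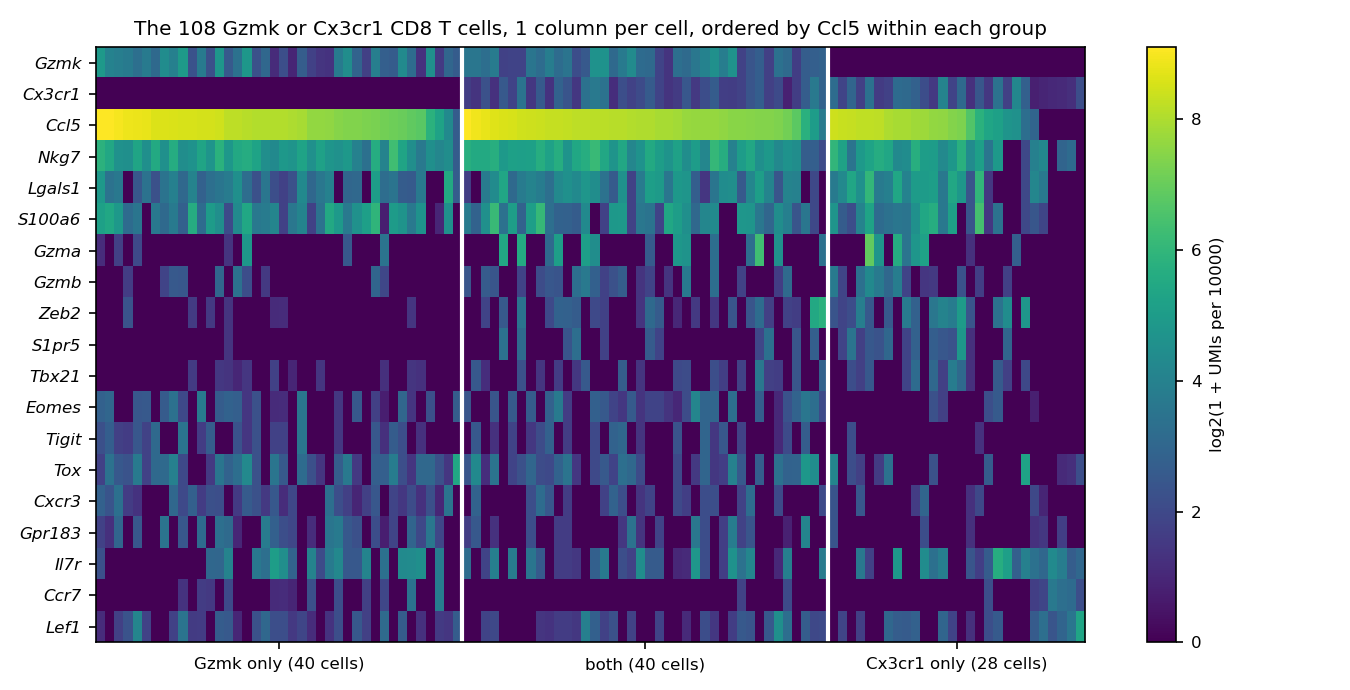
Expression of 19 genes (rows) in each of the 108 cells (columns), as log2 of 1 plus UMIs per 10000, with cells ordered by Ccl5 within the 40 Gzmk-only, 40 Gzmk+ Cx3cr1+ and 28 Cx3cr1-only cells. The Cx3cr1-only cells at the right end had no Ccl5 and held Ccr7 and Lef1.

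The Cx3cr1-only cells were not uniform. The 14 cells with 1 Cx3cr1 UMI had a median depth of 5521 UMIs and the 14 with at least 2 Cx3cr1 UMIs of 3782, so the second set was the shallower. Ccl5 stood at 78.2 per 10000 in the first and 169 in the second set, Lgals1 at 9.38 and 35.9, and S100a6 at 6.15 and 34.5. Without the cell with most S100a6 UMIs in each set these S100a6 rates were 3.43 and 20.4. Zeb2 stood at 2.91 (1.92 to 4.24) and 7.59 (5.60 to 10.1), and Tbx21 at 0.755 and 3.64. The naive genes went the other way. Ccr7 had 3.67 (2.54 to 5.12) there and 0 (upper limit 0.583) with at least 2 UMIs, and Lef1 had 5.82 and 2.06. The 5 members without a Ccl5 UMI all were Cx3cr1-only cells with 1 Cx3cr1 UMI, all 5 held Ccr7 and Lef1, and 0 of them held Zeb2 or S1pr5. These 5 cells go against the effector label. Without them, the cells with 1 Cx3cr1 UMI had Ccr7 at 0.938 (0.304 to 2.19), Lef1 at 2.81 (1.57 to 4.64), Zeb2 at 5.06 and Ccl5 at 136, all nearer to the cells with at least 2. Gzmk-only cells were split in the same manner. The 8 cells with 1 Gzmk UMI had Ccl5 at 201 and the 32 with at least 2 at 272, Eomes stood at 0.631 and 3.15, and Il7r at 14.7 and 6.20.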

How the data were processed

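Blood T cells of 1 vehicle-treated SCLC mouse were measured by 10x Genomics gene expression and TCR sequencing. The authors deposited raw UMI counts of 32285 genes in 300213 barcodes, made with Cell Ranger 4 per the file header, not filtered for cells (12855001 UMIs), and a table of TCR contigs with read and UMI counts and clonotypes. The submitters' processing notes name GRCm38, and the V(D)J reference is not given in the sources used here. Only contigs of barcodes that the deposited table calls cells were used. Coordinates and germline V and J sequences were taken from GRCm39 and GENCODE by gene symbol, and no deposited coordinate was used.

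UMI counts were pooled over cells per group, and genes with at least 50 UMIs in the compared groups were called higher or lower at 2-fold, with no test, since n is 1 mouse. Memory-like and B cells were chosen from their own UMIs, and B cells held at least 2 B cell markers. For shares, cells were thinned to 2500 UMIs and 6 shallower members were left out. Scrublet (Scanpy 1.11.5) marked 10 of 1600 barcodes as doublets, 2 of them members, which were kept. Free RNA was estimated from 20532 barcodes of 10 to 50 UMIs. Named genes are the 10 at each end of each comparison, up to 4 others of each of 20 gene lists, and the label markers; further genes are named to complete a list or a contrast and were chosen after their values were seen. The cells, the lists (312 genes) and the comparisons were chosen with earlier results of these data known. Some listed genes are counted but not reported here by name. The ratios were checked on counts simulated by the Poisson model that the intervals assume. That model holds no variation between cells or clones, so the check does not cover such variation. Alternatives were other UMI limits, stricter detection, other minimum UMIs and folds, means over cells, cells with a clonotype only, and removal of doublets, of barcodes under 10% RP or of the largest clonotypes. Python 3.11.15, pandas 2.3.3, NumPy 2.4.6, SciPy 1.17.1 and matplotlib 3.10.9 were used.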

Additional observations from a re-analysis of the deposited data

Results flagged for a closer look

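Gzmk or Cx3cr1 transcripts were also found in called cells that the rule leaves out. In each set below the pooled Ccl5 rate was above the 17.1 UMIs per 10000 of the other CD8 T cells. Cells with CD3, a Cd4 UMI and no CD8 UMI numbered 9, and their Ccl5 rate was 129 (119 to 139). All 9 had a clonotype, 6 held Gzmk and 3 held Cx3cr1, and Foxp3 was at 0. Cells with CD3 and neither CD8 nor Cd4 numbered 9 as well, with Ccl5 at 164 (151 to 177), 8 with Gzmk, 4 with Cx3cr1 and 1 with the gamma delta gene Trdc. Cells with CD3, CD8 and Cd4 numbered 2, with Ccl5 at 95.6 (77.9 to 116). Cells without CD3 numbered 15. Of these, 14 held Cx3cr1, 1 held Gzmk and 8 held the macrophage growth factor receptor Csf1r. Their Ccl5 rate of 21.0 (18.1 to 24.1) came from 4 cells, and the others had no Ccl5 UMI.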

How the results depend on the processing

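No paired analysis was possible because there is 1 library, and for the same reason no replicate could be left out. No named gene past 2-fold turned its direction in the alternatives run, whereas the median over all genes and some list medians near 0 changed their sign, as given with each comparison. Of the values that answer a comparison, 133 stayed within their limits and 36 moved past them. The members' share of CD8 T cells (15.9%) became 11.5% when 2 UMIs of the gene were needed and 19.3% without barcodes under 10% RP. The group with both genes (40 cells) fell to 19 cells with 2 UMIs and to 18 with the rule applied to thinned cells, and Cx3cr1-only cells (28) to 15 with 2 UMIs. Other CD8 T cells in expanded clonotypes (3.30%) came to 6.09% when clonotypes were set by the TRA CDR3, an alternative added after seeing the data.

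For members against other CD8 T cells (465 higher, 541 lower), 743 and 862 genes were higher and lower with a minimum of 20 UMIs, 273 and 298 with 100, and 1456 and 1179 at 1.5-fold. The lower count was 333 without barcodes under 10% RP and 832 with means over cells, and the higher count 299 without RP and mitochondrial transcripts in the denominator. For Gzmk-only against Cx3cr1-only cells (38 and 23), the counts were 59 and 36 with 2 UMIs of the gene, 166 and 197 with a minimum of 20 UMIs, 13 and 7 with 100, and 123 and 100 at 1.5-fold. The lower count was 11 without barcodes under 10% RP, 12 in clonotyped cells, 39 with means over cells and 13 without the largest clonotype of each group. In that pair the listed genes called lower were 14 with a minimum of 20 UMIs, against 8. For members against memory-like cells (402 and 206), they were 751 and 508 with 20 UMIs, 190 and 88 with 100, 1393 and 535 at 1.5-fold, and 208 and 372 with the other denominator. Of the named genes past 2-fold, 81 of 91, 16 of 30 and 68 of 79 stayed past it in all settings of the 3 comparisons. Depth limits the sparse genes: in the 155947 UMIs of Cx3cr1-only cells, 3 UMIs correspond to a rate of 0.192 per 10000, so rates near or under that rest on 3 UMIs or fewer. Rates without the cell that held most of a gene were added after seeing the data.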
